A study of Mus musculus with 9 samples.

Results

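The regions described here are stretches of open chromatin that had an ATAC-seq peak in every library of long-term haematopoietic stem cells (LT-HSCs) without retinoid X receptors alpha and beta, and in no library of wild-type LT-HSCs. ATAC-seq marks open chromatin by letting the Tn5 transposase insert sequencing adapters into accessible DNA. Peaks of the 9 deposited lists that shared 1 bp or more were joined into 117465 regions. Of these, 1209 regions (1.03%) had a peak in each of the KO lists (replicates 1, 2 and 4) and none in LT-HSC WT 2 or WT 3. They are called KO-only regions below. The members were selected on peak calls of the 5 LT-HSC libraries, so presence and strength in those libraries are given as a description, with no test. The multipotent progenitor (MPP) lists took no part in the selection.

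The LT-HSCs and MPPs came from bone marrow of mice of the C57BL/6 strain, with genotype RXRa/RXRb-KO or wild type. There were 3 KO and 2 wild-type LT-HSC libraries, and 2 KO and 2 wild-type MPP libraries. Per the labels, the sort started from lineage-negative cells of pooled animals. The sources used here do not give the age of the animals or the driver and timing of the deletion. Nothing in the labels says that replicates came from separate pools, so a p-value speaks only of variation among these libraries, possibly technical.

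LT-HSCs are the rare, mostly resting cells that sustain blood formation for life, and MPPs are their more proliferative descendants. Retinoid X receptors are nuclear receptors that bind DNA as partners of the retinoic acid, liver X, peroxisome proliferator-activated and NR4A receptors, and recruit coactivators or corepressors that change chromatin around their sites. An accessible region can be a promoter at the start of a gene or a distal element inside or between genes, and a peak call alone does not say which gene an element acts on.

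The sequences at 4 KO-only regions that reach into the stretch just before a gene start are shown because they are among the few whose bases could be read, with 1 region in no MPP list, 1 in all 4, 1 in the KO lists alone and 1 in the wild-type lists alone. The sequences are the 250 bases before the start in RefSeq for GRCm38.p6, 5′ to 3′ on the strand of the gene, and capitals mark the bases inside the KO-only region. Lsamp (chr16:39984114-39984363, plus strand) encodes a neuronal adhesion protein, and its region was in no MPP list. Sema3d (chr5:12382916-12383165, plus strand) encodes a secreted guidance protein, and its region was in all 4 MPP lists. Ccna1 (chr3:55055056-55055305, minus strand) encodes cyclin A1, best known from male germ cells, and its region was held by both MPP KO lists and no MPP wild-type list. Agbl4 (chr4:110397448-110397697, plus strand) encodes a carboxypeptidase that trims glutamates from tubulin, and its region was held by both MPP wild-type lists and no MPP KO list.
Lsamp: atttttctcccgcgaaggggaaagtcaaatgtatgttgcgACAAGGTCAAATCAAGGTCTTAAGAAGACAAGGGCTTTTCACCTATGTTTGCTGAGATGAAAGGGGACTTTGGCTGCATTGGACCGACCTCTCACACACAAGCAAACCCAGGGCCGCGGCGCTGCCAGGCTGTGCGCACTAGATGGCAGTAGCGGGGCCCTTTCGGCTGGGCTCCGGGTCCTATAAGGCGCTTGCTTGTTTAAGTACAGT
Sema3d: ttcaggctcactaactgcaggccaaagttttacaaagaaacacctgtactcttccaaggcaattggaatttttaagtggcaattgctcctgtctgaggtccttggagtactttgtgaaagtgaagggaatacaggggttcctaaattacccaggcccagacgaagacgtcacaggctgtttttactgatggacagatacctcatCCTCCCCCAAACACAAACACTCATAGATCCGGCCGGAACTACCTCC
Ccna1: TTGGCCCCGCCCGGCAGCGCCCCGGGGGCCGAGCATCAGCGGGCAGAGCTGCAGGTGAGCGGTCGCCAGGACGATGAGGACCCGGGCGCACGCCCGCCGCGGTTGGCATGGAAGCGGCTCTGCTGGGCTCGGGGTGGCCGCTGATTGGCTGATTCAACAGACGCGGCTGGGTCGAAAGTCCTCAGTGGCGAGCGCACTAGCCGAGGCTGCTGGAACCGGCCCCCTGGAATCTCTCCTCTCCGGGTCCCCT
Agbl4: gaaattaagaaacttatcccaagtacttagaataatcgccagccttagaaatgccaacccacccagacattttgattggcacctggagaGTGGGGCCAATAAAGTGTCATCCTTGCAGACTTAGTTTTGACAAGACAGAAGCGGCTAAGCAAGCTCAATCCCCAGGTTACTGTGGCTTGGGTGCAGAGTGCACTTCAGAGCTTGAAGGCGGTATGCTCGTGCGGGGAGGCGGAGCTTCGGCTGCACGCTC

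The 4 windows differ in how much of them was open and in base composition. The KO-only region covered 210 of the 250 bases at Lsamp, 46 at Sema3d, all 250 at Ccna1 and 161 at Agbl4. The GC content was 53.2%, 46.8%, 71.2% and 50.8%, and the number of CpG dinucleotides was 12, 4, 26 and 8. The window of Lsamp holds AGGTCA, the half-site that retinoid X receptors and their partners recognise.

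The table of gene starts used here gave 97 windows of 250 bases that touched 82 of the 1209 KO-only regions. Their median GC content was 58.0%, against 52.4% over all 31396 windows and 61.2% over the 8397 windows touching regions of all 5 LT-HSC lists. The median CpG number was 11, against 6 and 18. AGGTCA was found on either strand in 12 of the 97 windows (12.4%, 95% Wilson interval 7.22% to 20.4%), against 14.1% of all windows. No window held a pair of AGGTCA in the same direction 1 base apart, the form named DR1, which 11 of all 31396 windows held. The CRE letters TGACGTCA were in 4 windows (4.12% against 1.58% of all), the E-box CACGTG in 6 (6.19% against 6.02%) and the AP-1 letters TGAGTCA in 3 (3.09% against 4.50%). The RUNX letters TGTGGT were in 12 (12.4% against 14.0%) and the GATA letters AGATAA in 5 (5.15% against 9.94%). All were searched on both strands. In the windows touching regions of all 5 LT-HSC lists, AGGTCA was in 9.13%, the CRE letters in 3.23% and the E-box in 8.86%. The AP-1 letters were in 2.56%, the RUNX letters in 10.1% and the GATA letters in 4.26%. Each of these shares lay inside the interval for the 97 windows, which was 1.62% to 10.1% for CRE and 2.22% to 11.5% for GATA. For AGGTCA and GATA the share of all windows lay inside it too, so neither was set apart from either reference. Some of the 97 windows are alternative starts of the same gene and overlap, so the intervals are too narrow. These matches describe letters in a window and not binding.

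The KO-only regions were small peaks. In bulk cells a low peak can be a site open in few cells or little open in many, which cannot be told apart here. The deposited fold enrichment and p-value of a peak together give its height, the number of reads stacked at its summit, and the local background it was tested against. In LT-HSC KO 1 the median height of the 1209 regions was 14 reads (quartiles 12 and 17), in KO 2 it was 16 (13 and 21) and in KO 4 it was 18 (14 and 23). Regions held by all 5 LT-HSC lists had median heights of 23, 34 and 104 reads in the same libraries. The KO-only regions ranked in the lower part of the KO 1 and KO 4 lists and near the middle of the KO 2 list. By −log10 q, where 0 is the top of the list and 100 the bottom, their median rank percentile was 70.3 in KO 1, 47.5 in KO 2 and 67.8 in KO 4, and 40.4%, 15.4% and 37.2% of them ranked beyond percentile 75. The smallest −log10 q among them was 1.50, 2.47 and 2.19.

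**Figure D1:**
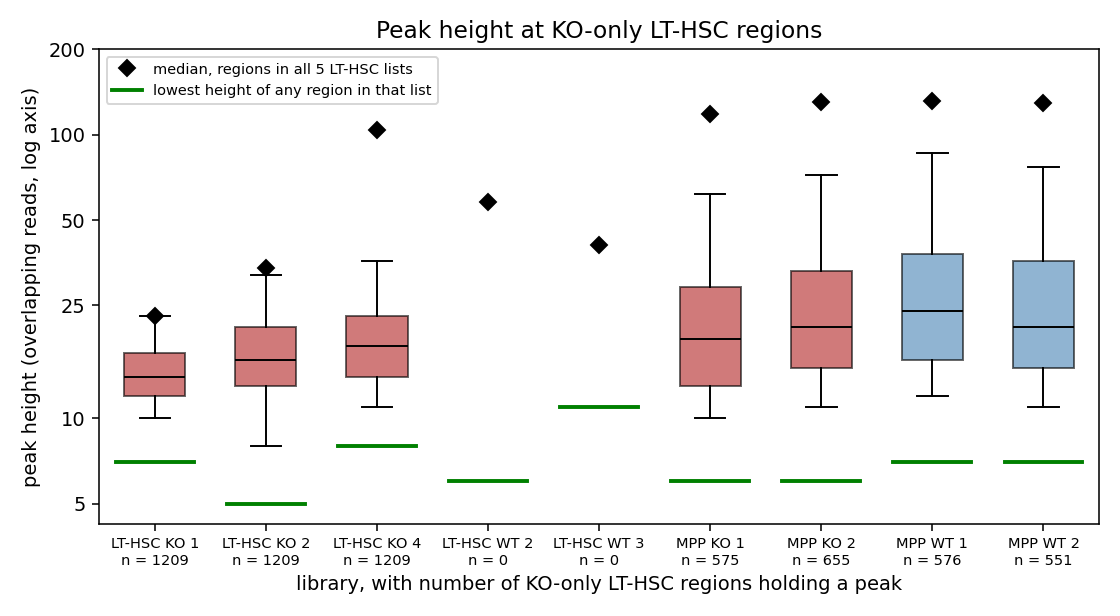
Height of the peaks at KO-only LT-HSC regions in each library, in overlapping reads on a log axis. Boxes give the median and quartiles, whiskers the 5th and 95th percentiles, diamonds the median over regions of all 5 LT-HSC lists and green lines the lowest height of any region in that list. The boxes of the 3 KO LT-HSC libraries lie at medians of 14 to 18 reads, below the diamonds, and the wild-type LT-HSC libraries have no box because the rule demands no peak there.

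The LT-HSC lists differed in what a peak needed. The lowest height of any region was 7, 5 and 8 reads in KO 1, KO 2 and KO 4, 6 in WT 2 and 11 in WT 3. The genome background, read from the even spacing of the fold values, was 1.41, 0.78 and 1.69 reads in the KO libraries, 1.21 in WT 2 and 2.67 in WT 3. LT-HSC WT 3 therefore had the highest background and, with 22878 peaks, the second shortest list, while WT 2 had 50023 peaks. The KO lists held 22690, 43126 and 71586. Whether background or list length set the absence of a wild-type call at KO-only regions was not tested.

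Regions just outside the rule show how it was met. A further 4647 regions were in all 3 KO lists and in WT 2 but not WT 3, and only 35 were in all 3 KO lists and WT 3 but not WT 2. In the 4647, the median height in WT 2 was 18 reads, and in KO 1, KO 2 and KO 4 it was 15, 20 and 35. With no wild-type LT-HSC peak and 1 KO list missing, 3946 regions lacked KO 1, 191 lacked KO 2 and 544 lacked KO 4. The mirror pattern, both wild-type and no KO list, was found in 32 regions. Single libraries thus decided the number: it was 5155 without KO 1 and 5856 without WT 2, against 1244 without WT 3.

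Within a KO-only region the peaks of the 3 KO libraries lay close together. The rule joins overlapping peaks, so it favours this, and other sets were not measured for it. Each KO list had a single peak in 1187 of the 1209 regions, and in 1176 the 3 peaks shared a common stretch. The summits of the 3 lists lay a median of 46 bp apart (upper quartile 83 bp). The median width was 378 bp. The nearest wild-type LT-HSC peak was a median of 34.3 kb away, and 66 regions (5.46%) had one within 1 kb. The median gap to the next KO-only region was 791 kb, and 138 of 1190 gaps were under 100 kb. Spacing was not measured for other sets, so these gaps do not say whether the regions were clustered or scattered.

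The strongest KO-only regions, by the poorest rank each had in any KO list, were led by one inside Tram2 (chromosome 1, 21014449 to 21015046), which encodes a membrane protein of the endoplasmic reticulum translocation channel. It was 37, 38 and 59 reads high in KO LT-HSCs 1, 2 and 4, and 48, 51, 47 and 40 reads high in MPP KO 1, KO 2, WT 1 and WT 2. This region thus had a peak in progenitors of both genotypes and in no wild-type LT-HSC library. A region inside Naaladl2 (chromosome 3, 25124857 to 25125408), a gene of the glutamate carboxypeptidase family, followed with 32, 42 and 46 reads in the KO LT-HSC libraries. In MPPs it had 11 and 16 reads in the KO libraries and no peak in the wild-type ones.

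The next 4 were in no MPP list. A region on chromosome 1 (41810349 to 41810906), 885 kb from the nearest gene, had 33, 36 and 40 reads in KO 1, KO 2 and KO 4. One on chromosome 3 (134365969 to 134366341), 104 kb from a gene, had 23, 36 and 41. The other two were at Ppfia2 (26, 26 and 36 reads; chromosome 10, 106932606 to 106933149), which encodes the synaptic scaffold liprin alpha 2, and 84.5 kb outside Spata16 (21, 25 and 35 reads; chromosome 3, 26552921 to 26553334), a gene of sperm head formation. Heights in these 4 regions were above the quartiles of KO-only regions in all 3 KO libraries.

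The holding of KO-only regions by MPPs split into extremes. Of the 1209 regions, 481 (39.8%, 95% Wilson interval 37.1% to 42.6%) were in no MPP list, against 14.8% of all regions. A further 441 (36.5%) were in all 4 MPP lists, against 54.5% of all regions, and 88, 92 and 107 were in 1, 2 and 3 lists. The 4682 regions in all KO and exactly 1 wild-type LT-HSC list were in no MPP list in 14.9% and in all 4 in 70.4% of cases. The 4681 regions in 2 KO and no wild-type LT-HSC lists were close to KO-only regions, with 37.9% in no MPP list and 37.0% in all 4, so this division was not particular to regions in all 3 KO lists. The sets share LT-HSC libraries, so the contrast describes how a wild-type LT-HSC call goes with MPP holding, and intervals cover counting error over regions, not the spread between libraries. The share in no MPP list was 35.9% without LT-HSC KO 1 and 46.6% without KO 4. It was 20.0% without WT 2, since the rule then admits the regions that WT 2 holds.

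Over the 441 KO-only regions in all 4 MPP lists, the MPP summits lay a median of 15 bp from the KO LT-HSC summits. Their median height was 23 and 26 reads in MPP KO 1 and KO 2 and 27 and 25 reads in MPP WT 1 and WT 2, so the genotypes overlapped. The LT-HSC heights differed little between the classes: regions in no MPP list had medians of 14, 16 and 17 reads in KO 1, KO 2 and KO 4, and regions in all 4 had 14, 16 and 20.

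Holding was then compared between MPP genotypes, which asks whether regions found only in KO LT-HSC lists were also called more often in KO progenitors. MPP KO 1 held 575 of the 1209 regions (47.6%), KO 2 655 (54.2%), WT 1 576 (47.6%) and WT 2 551 (45.6%). MPP KO 2, which also has the longest MPP list, stood above the other three, and KO 1 lay between the wild-type libraries. The KO mean was 50.9% ± 4.68 and the wild-type mean 46.6% ± 1.46 (SD, n = 2 each), a difference of 4.26 percentage points. The two-sided exact permutation p was 0.667, over 6 labellings whose smallest p is 0.333, so this design cannot reach 0.05. As an alternative, with the MPP lists cut to equal length, the difference was 5.09 points and the exact permutation p was 0.333.

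Corrected for how often each MPP library held the other 10277 regions found in exactly 3 LT-HSC lists, the difference was 0.41 points (exact permutation p = 1). Those regions were held almost throughout by KO 4 and WT 2, only 392 of them by KO 1, so they are matched in number of lists and not in libraries. Among equal numbers of strongest peaks, the 22690 per list, KO 1 and KO 2 held 5.29% and 5.38% of KO-only regions and WT 1 and WT 2 held 5.79% and 5.54%. The groups did not overlap, the difference was −0.33 points and the exact permutation p was 0.333, the smallest possible. With Benjamini-Hochberg adjustment over these 3 comparisons each exact permutation p was 1. The sign of the last result changed with the number of peaks taken: it was 0.04 points with 10000 and 1.61 points with 40000.

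**Figure D2:**
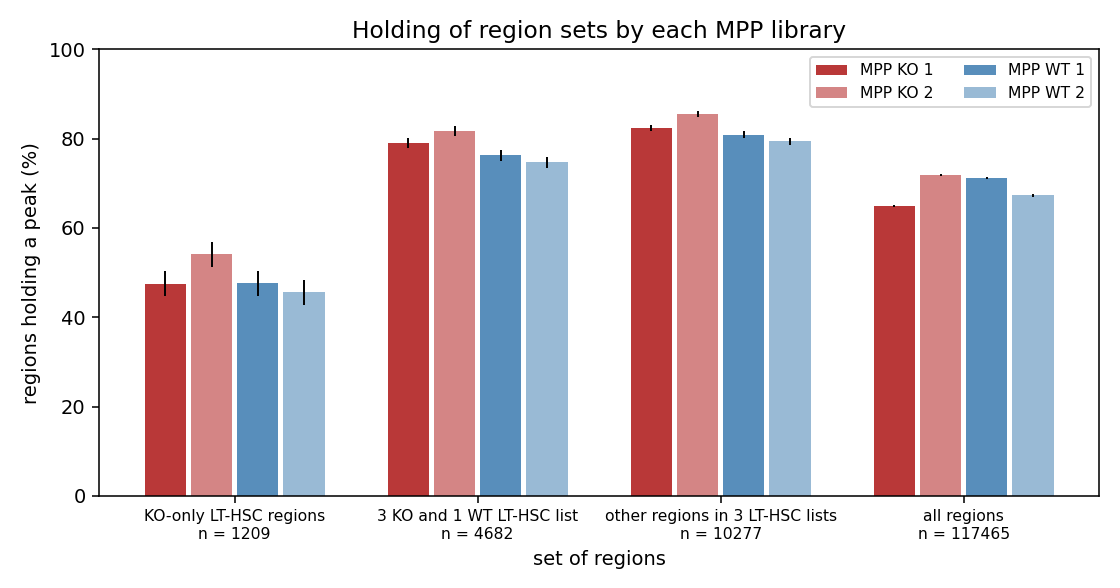
Share of regions holding a peak in each MPP library, in percent, for KO-only regions and 3 other sets, with 95% Wilson intervals as bars. KO-only regions were held in 45.6% to 54.2% of cases and the regions in all KO and 1 wild-type LT-HSC list in 74.7% to 81.7%. For KO-only regions the bar of KO 1 lies between those of WT 1 and WT 2, and the bar of KO 2 is highest.

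Among KO-only regions, 37 (3.06%) were in both MPP KO lists and no MPP wild-type list, against 1.95% of all regions. The reverse, both MPP wild-type lists and no MPP KO list, was found for 10 (0.827%), against 2.38% of all regions. The 4682 regions in all KO and 1 wild-type LT-HSC list had 122 (2.61%) and 12 (0.256%), so the KO-sided count exceeded the other there too. The balance rested on MPP KO 2: without it 48 KO-only regions were KO-sided and 47 wild-type-sided, and without MPP KO 1 the counts were 82 and 14. Among equal numbers of strongest peaks each count was 4 (0.331%), against 0.72% of all regions for the KO side and 0.757% for the wild-type side.

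The named regions split by MPP genotype were low peaks in MPPs. After Naaladl2, the KO-sided regions of best rank included one 18.8 kb from Gm5150, with 17, 25 and 23 reads in the KO LT-HSC libraries and 9 and 13 in MPP KO 1 and KO 2. One inside Grin3a, an NMDA receptor subunit gene, had 18, 14 and 21 reads, and 14 and 15 in MPPs. The regions nearest to Plekhb2 and Toporsl, at 12.0 kb and 48.6 kb, had 12 to 14 reads in the MPP KO libraries. The MPP heights of these named regions lay at or below 16 reads, where the lowest region of either MPP KO list had 6. A further KO-sided region, over 100 kb from any gene on chromosome 2, had 17 and 13 reads in MPP KO 1 and KO 2. Not every KO-sided region was low: one that the naming rule left out had 25 and 28 reads in MPP KO 1 and KO 2. The medians over KO-only regions were 19 and 21 reads in those libraries.

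The wild-type-sided regions were also low in MPPs. The region at Cpa6, a carboxypeptidase gene, had 20, 22 and 35 reads in KO LT-HSCs 1, 2 and 4 and 11 and 13 in MPP WT 1 and WT 2. The region at the Agbl4 start, whose window is printed above, had 17, 34 and 21 reads, and 12 and 13 in MPPs. At Diaph3, a formin gene that organises actin, MPP heights were 13 and 12 reads, and at Spx, which encodes the peptide spexin, 16 and 13. The tallest were inside Oxr1, an oxidation resistance gene, with 19 and 21 reads, and 27.7 kb from Fzd4, a Wnt receptor gene, with 21 and 14. Each of these regions was in the KO lists of LT-HSCs and the wild-type lists of MPPs, so the genotype of the call was not the same in the 2 cell types.

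KO-only regions lay farther from genes than other regions. Distance was taken to the nearest start or end of 20665 protein-coding genes of GRCm38.p6. Within 1 kb of a gene end there were 127 regions (10.5%), against 16.3% of all regions and 49.2% of regions in all 5 LT-HSC lists. Another 449 (37.1%) were inside a gene and over 1 kb from its ends, and 372 (30.8%) were outside genes at 1 to 100 kb. The remaining 261 (21.6%, 95% Wilson interval 19.4% to 24.0%) were over 100 kb from any gene, against 6.94% of all regions. The median distance was 39.5 kb against 13.9 kb, and the median number of genes in the surrounding 1 Mb was 4 against 10. The 4681 regions in 2 KO and no wild-type LT-HSC lists lay between, at a median of 26.1 kb and 6 genes per Mb. Of them 10.2% were within 1 kb of a gene end, so the low share there was not particular to KO-only regions. Exons and introns were not told apart here.

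The distance varied with MPP holding. Of the 481 KO-only regions in no MPP list, 139 (28.9%) were over 100 kb from a gene, with a median distance of 67.6 kb. Of the 441 in all 4 MPP lists, 66 (15.0%) were, with a median of 28.3 kb. Both shares were above that of all regions. Regions in all KO and exactly 1 wild-type LT-HSC list had 12.6%. Among the sets with no wild-type LT-HSC call and 1 KO list missing, the share was 13.3% where KO 1 was missing, 6.28% where KO 2 was and 29.2% where KO 4 was.

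**Figure D3:**
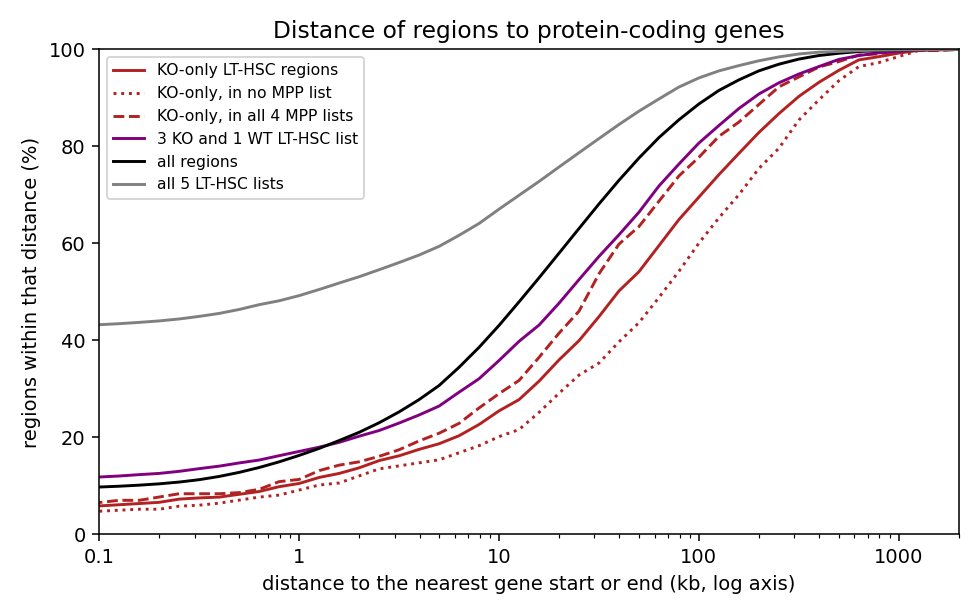
Cumulative share of regions, in percent, within a given distance of the nearest protein-coding gene start or end, in kb on a log axis. The red curves of KO-only regions run below the black curve of all regions across the plotted range up to their shared end at 100%, and the dotted curve of KO-only regions in no MPP list runs lowest, at 60.1% within 100 kb against 88.8% of all regions. Regions inside long genes can also lie over 100 kb from a gene end.

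The make-up of the LT-HSC lists differed in the same measure. Leaving out the regions of all 5 LT-HSC lists, 15.0% of the regions of LT-HSC KO 1 and 11.1% of those of KO 2 were over 100 kb from a gene, against 6.31% for KO 4, 5.53% for WT 2, 2.50% for WT 3 and 5.80% to 6.03% for the 4 MPP libraries. The rule requires a call in KO 1 and KO 2 and none in WT 3. Selected without KO 1, 15.2% of 5155 regions were over 100 kb from a gene and the median number of genes per Mb was 6. Selected without WT 2, the share was 14.5% of 5856 regions. How much of the distance of KO-only regions comes from the make-up of single lists was not tested.

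**Figure D4:**
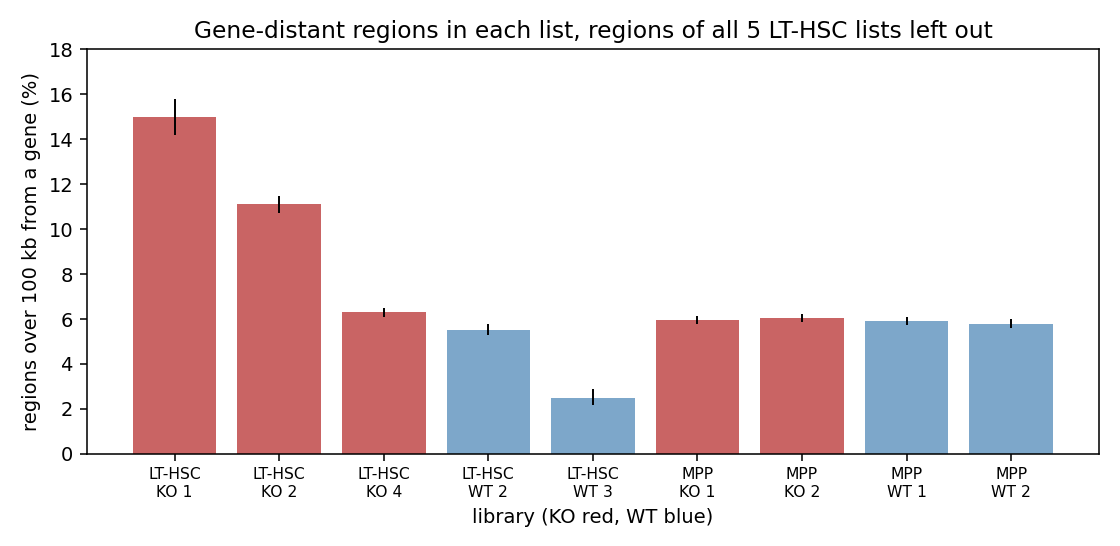
Share of each library's regions that lie over 100 kb from a protein-coding gene, in percent, with regions of all 5 LT-HSC lists left out and 95% Wilson intervals as bars. LT-HSC KO 1 (15.0%) and KO 2 (11.1%) stand above the other 7 libraries, which range from 2.50% to 6.31%.

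By chromosome, KO-only regions were most frequent on chromosome 3, with 114 regions or 18.3 per 1000 regions, and on chromosome 16, with 73 or 17.2 per 1000. Chromosomes 14 and 18 followed with 14.1 and 14.0 per 1000. The lowest rates were on chromosome 19, with 4 regions or 1.07 per 1000, and chromosome 11, with 28 or 3.38 per 1000. Chromosome 3 held 9.43% of KO-only regions and 5.30% of all regions. It held 8.05% of the regions in all KO and 1 wild-type LT-HSC list and 7.88% of those in KO 2 and KO 4 alone, so the same chromosome was above its overall share there. Chromosome 11 carries 1609 protein-coding genes in the table used here and chromosome 3 carries 983. The number of genes did not order the chromosomes by rate, however. Chromosome 19, with the lowest rate, carries 705 genes, and chromosome 7, with the most genes at 2030, had 7.81 per 1000. Gene numbers were not scaled to chromosome length, and their relation to the rate was not tested. Chromosome X was not analysed here.

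**Figure D5:**
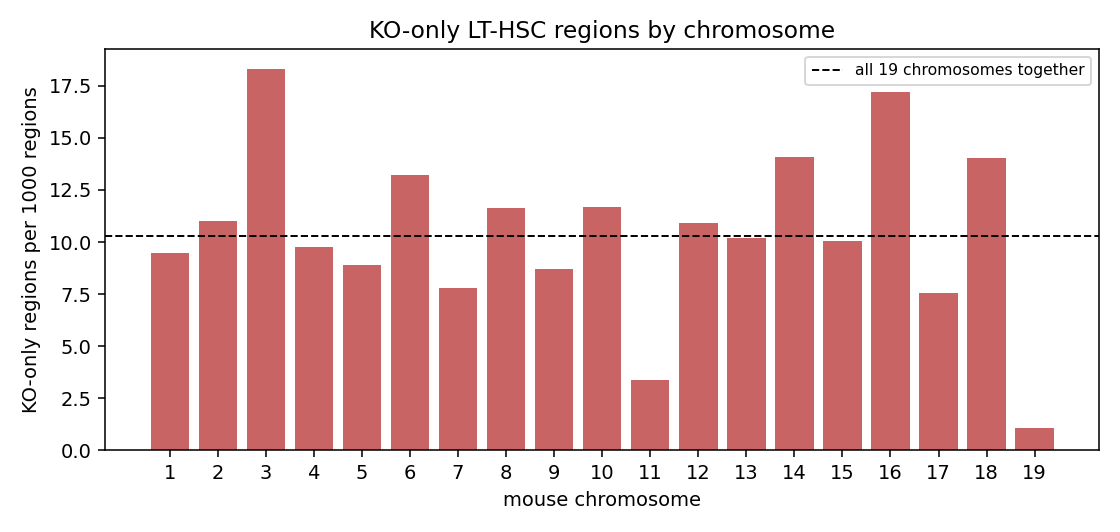
Number of KO-only regions per 1000 merged regions on each mouse chromosome, with a dashed line for all 19 chromosomes together. Chromosomes 3 and 16 stand highest, at 18.3 and 17.2, and chromosome 19 lowest, at 1.07.

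KO-only regions inside genes tended to lie in long genes. A region was given to the gene holding its midpoint, or else to the nearest gene within 100 kb, which assigned 948 regions to 801 genes. The genes that held a midpoint had a median length of 187 kb over regions, against 79.6 kb for all regions inside genes. Of the 533 KO-only regions inside a gene, 23.1% lay in one over 500 kb, against 5.77%. The same 2 values were 123 kb and 12.3% for regions in all KO and 1 wild-type LT-HSC list. They were 129 kb and 14.5% for regions in 2 KO and no wild-type lists, so part of this was shared. Longer genes hold more regions of any kind. Of the 801 genes, 678 had 1 KO-only region, 101 had 2, 20 had 3 and 2 had 4.

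The 2 genes with 4 were Gpc5 and Cadps. Gpc5 encodes a glypican, a heparan sulfate proteoglycan of the cell surface, and 4 of its 29 regions were KO-only. Its tallest in MPPs (chromosome 14, 115250491 to 115250998) had 22, 19 and 22 reads in KO LT-HSCs 1, 2 and 4 and 92, 83, 87 and 86 in MPP KO 1, KO 2, WT 1 and WT 2. Another region had 32 to 40 reads in the 4 MPP libraries, one was in 3 MPP lists at 11 to 14 reads, and one was in none. Within Gpc5 the KO-only regions thus covered the whole range of MPP holding. Cadps encodes a protein that primes dense-core vesicles for release, and 4 of its 10 regions were KO-only. Of these, 3 were in no MPP list and 1 had 11 reads in MPP KO 1 and 11 in MPP WT 2.

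Lsamp, Dlg2 and Robo2, which encode the adhesion protein above, a synaptic scaffold and a receptor for Slit guidance cues, had 3 KO-only regions each of 26, 42 and 28 regions. All 3 at Lsamp were in no MPP list. That at the gene start (chromosome 16, 39984154 to 39985208) had 34, 43 and 36 reads in KO 1, KO 2 and KO 4, and one deep inside the gene, 984 kb from its nearer end (40968091 to 40968447), had 30, 48 and 31. The last at Lsamp was low, with 15, 7 and 11. At Dlg2 and Robo2, 2 regions each were in no MPP list and 1 was in all 4. The Robo2 region in all 4 (chromosome 16, 73874965 to 73875357) had 19, 29 and 30 reads in KO LT-HSCs and 27 to 38 in MPPs.

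Bod1l, whose product protects stalled replication forks, had 3 of 6 regions KO-only, all outside the gene at 0.96 to 43.6 kb. They were in 1, 3 and 4 MPP lists. Ptprk, a receptor tyrosine phosphatase gene, had 3 of 17, with 1 in all 4 MPP lists and 2 in none. Dtna, which encodes dystrobrevin alpha of the dystrophin complex, had 3 of 11, with 2 in no MPP list and 1 in both wild-type MPP lists only, at 14 reads in each.

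Other KO-only regions of good rank in all 4 MPP lists varied in MPP height. The region 60.6 kb from Mbd2, which encodes a methyl-CpG binding protein, had 22, 19 and 38 reads in KO LT-HSCs 1, 2 and 4 and 53, 54, 87 and 60 in MPP KO 1, KO 2, WT 1 and WT 2. The region inside Clec4d, a C-type lectin receptor gene of myeloid cells, had 24, 33 and 36 reads and then 41, 41, 49 and 55. In both the wild-type MPP heights were above the KO ones, but heights are not scaled to library background. That background was 1.28 and 1.31 reads in MPP KO 1 and KO 2, and 1.54 and 1.51 in WT 1 and WT 2. Fold enrichments lay closer together. In the same order of libraries they were 18.2, 18.6, 23.4 and 18.8 at Mbd2, and 8.57, 8.40, 8.59 and 10.3 at Clec4d. The region nearest to Mfap3l had the reverse order, with 21 and 21 reads in the KO and 18 and 12 in the wild-type MPP libraries. At the small GTPase gene Rap2b the genotypes overlapped, at 17, 31, 32 and 22 reads. None of these differences was tested.

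Few KO-only regions lay at genes of the lists examined. HSC identity genes had 1 of 472 regions (0.212%) and quiescence and TGF-beta genes 1 of 304 (0.329%). Across all 18 lists, which cover 328 genes of blood cell function, other cell types and controls, 8 of 3363 assigned regions were KO-only (0.238%), against 948 of all 109315 assigned regions (0.867%). The lists have more regions per gene than other genes, and none of these shares was tested. Neither Rxra (27 regions), Rxrb (3) and Rxrg (8) nor Myc (16) had a KO-only region. The lists of MYC target, myeloid priming, erythroid and megakaryocyte priming, cell cycle, AP-1, interferon, metabolic, T cell, B cell, mature erythroid and neuronal and hepatic control genes had none either.

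The receptor list had 3 KO-only regions of 451 (0.665%). The region inside Rarb, the gene of retinoic acid receptor beta (chromosome 14, 17061395 to 17062063), had 13, 9 and 18 reads in LT-HSC KO 1, KO 2 and KO 4, with 11 in MPP KO 1 and 15 in MPP WT 1 and no peak in the other two. The region 4.18 kb from Nr4a2, a nuclear receptor that can pair with retinoid X receptors, had 12, 20 and 26 reads and 25 to 32 in all 4 MPP libraries. The region 71.0 kb from Nrip1, a corepressor of nuclear receptors, had 19, 20 and 48 reads and no MPP peak. Rarb also counts among the 25 HSC identity genes and Nr4a2 among the quiescence genes, each as the list's only KO-only gene.

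In the MYC network list the only KO-only region had its midpoint inside Mycn, the gene of the MYC family member N-myc. The region came within 1 kb of a gene end, and its midpoint was 1.23 kb from the nearest one. It had 14, 18 and 33 reads in KO 1, KO 2 and KO 4 with fold enrichments of only 3.25, 3.29 and 3.17, and no MPP peak. The lymphoid list had 1, inside Lef1, a transcription factor of the Wnt pathway, with 18, 15 and 31 reads and 50, 54, 44 and 20 in MPP KO 1, KO 2, WT 1 and WT 2. Among marker lists of other cell types, mature myeloid genes had 2 KO-only regions of 87 (2.30%), the highest share of the 18 lists, both at Mrc1, the mannose receptor of macrophages. Stromal and endothelial genes had 1 of 185 (0.541%), 72.8 kb from Cdh5, the endothelial cadherin. The Mrc1 regions were taller in MPPs, at 39 to 61 and 39 to 62 reads, than in KO LT-HSC libraries, at 15 to 27 and 7 to 19.

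The labelled cell types were checked by peaks within 1 kb of marker genes. LT-HSC markers had such a peak at 4 of 10 genes in LT-HSC KO 1, the lowest, and at 7 to 9 in the other LT-HSC libraries. In the MPP libraries the LT-HSC markers had one at 9 to 10 of 10 genes, so this count did not set LT-HSCs apart from MPPs. MPP markers had one at 3 to 5 of 6 genes in the LT-HSC libraries and at 5 of 6 in each MPP library. T cell and B cell markers had one at 1 to 2 of 6 genes in each LT-HSC library and mature myeloid markers at 0 to 2 of 6. Erythroid markers had one at 2 to 4 of 6 and stromal and endothelial markers at 2 to 5 of 6, lowest in KO 1 and WT 3 for both lists. In the MPP libraries the T, B and mature myeloid counts were 3 to 6 of 6. These counts were not adjusted for list length. LT-HSC KO 1 and WT 3 had the shortest lists, at 22690 and 22878 peaks, and the MPP libraries the longest, at 78189 to 86353. No KO-only region was at an LT-HSC, MPP, T cell or B cell marker.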

How the data were processed

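Per the labels, ATAC-seq libraries of sorted LT-HSCs and MPPs were sequenced as paired reads of 50 nt. The authors deposited 1 narrowPeak list per library, called with MACS2 2.1.1 on mm10, per the submitters' processing notes. The notes list, without roles, HOMER 4.10.3, edgeR 3.20.9, DiffBind 2.6.6, SAMtools 0.1.18, Bowtie2, FastQC and cutadapt 1.7. The sources used here do not say how reads were shifted for the Tn5 cut or filtered for duplicates. Each deposited peak has a fold enrichment (a ratio), a −log10 p-value, a −log10 q-value, a display score and a summit offset. The score was not used. Read counts were not used here. The depth of each library is known only through the height and background below.

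The 540767 deposited peaks were merged at 1 bp of overlap with Python 3.11.15, NumPy 2.4.6, pandas 2.3.3 and SciPy 1.17.1, and figures were drawn with Matplotlib 3.10.9. Height and local background were solved for each peak from the deposited fold, taken as height plus 1 over background plus 1, and the deposited −log10 p-value, taken as the Poisson tail above the height. All member peaks and 98.6% of all peaks gave a whole height matching the p-value within 0.001. Only 85.1% to 91.8% did among MPP peaks of regions in all 5 LT-HSC lists, so those medians cover the recovered peaks. The spacing of fold values was read at a tolerance of 1e-04. This step was chosen after seeing the data. The steps were tested on simulated data.

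Libraries were the replicates. MPP genotypes were compared by two-sided exact permutation of 4 libraries. The same replicate numbers occur in KO and wild-type MPPs, but the labels do not say that they mark a shared animal or day, and they were not used as a block in the tests reported. The 95% Wilson intervals of shares cover only counting error. Genes, and the 250 bases before their starts, came from RefSeq tables for GRCm38.p6, whose chromosomes are those of mm10. The gene table has no strand, and the table of starts is partial, so distances use gene ends. No genome sequence was used, so bases of distal regions were not read. Chromosomes 1 to 19 were analysed.

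The regions named are the 8 genes with most KO-only regions, up to 2 genes per list, the 6 regions with the best value of their poorest rank among all, among those in no MPP list and among those in all 4, and up to 8 regions split by MPP genotype in each direction. One region that this rule names is not reported here. The members and lists were chosen with earlier results of these data known. Alternatives were other q-value limits, overlaps, margins and list lengths, and each library left out.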

Additional observations from a re-analysis of the deposited data

How the results depend on the processing

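The number of KO-only regions was 563 with equal numbers of strongest peaks per list, where 71.6% were in no MPP list (the MPP lists being shortened too) and 13.7% were over 100 kb from a gene. Leaving out each LT-HSC library gave 1244 to 5856 regions, of which 20.0% to 46.6% were in no MPP list, 14.5% to 24.0% over 100 kb from a gene and 9.95% to 15.7% within 1 kb of one. Leaving out any of the 9 libraries gave 37 to 159 KO-sided and 10 to 47 wild-type-sided regions. These counts rise by construction, since fewer libraries make the rule easier to meet. Within 2 kb and 5 kb of a gene end there were 13.7% and 18.7% of KO-only regions. The other 8 alternatives for the number of regions left it within 1.5 times of 1209. The difference in MPP holding kept its sign in 15 of 15 alternatives, at 0.95 to 7.57 points when 1 library was left out. Its value relative to comparison regions was −0.018 points with those regions weighted to the same classes by distance to a gene, and −1.29 to 2.86 points with 1 library left out, reversing without LT-HSC KO 2 (−0.11) and MPP KO 2 (−1.29). The strongest-peak difference was 0.041 points with 10000 and 1.61 points with 40000 peaks, and −0.46 to 1.33 points with 1 library left out, positive without LT-HSC WT 2 (1.33). The cause of these reversals was not tested. Over all alternatives the exact p lay between 0.333 and 1, and no design here could reach 0.05. With the replicate block, pairing MPP libraries by number, the differences were 4.26, 0.41 and −0.33 points with exact sign-flip p of 1, 1 and 0.5, the smallest it allows. Peak presence showed no shared deviation between libraries of the same number (correlation of replicate deviations −0.02 over all regions, across regions and not samples). With 1 pair of replicates per genotype, this cannot decide whether the numbers mark a shared animal or day. The alternatives for the shares in no MPP list and over 100 kb from a gene, and the libraries left out of the counts split by MPP genotype and of the share within 1 kb, were chosen after seeing the data. Peak heights of 5 to 11 reads set the limit of detection, so a missing peak does not show closed chromatin.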
